A study of Mus musculus with 12 samples.

Results

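The 37 genes of the mouse mitochondrial genome were all found among the 55487 rows of the deposited liver table. They were taken as the rows whose gene name begins with mt-, a rule on names that uses no measured value. They comprised 13 protein genes, 2 rRNAs and 22 tRNAs. The 13 protein genes and both rRNAs reached at least 1 TPM (a relative abundance per transcript length, scaled to a common total; the unit was inferred from the values) in at least 6 of the 12 libraries and were tested. The 22 tRNA rows were listed at 0 TPM in each of the 12 libraries and gave no comparison.

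The study set livers of mice with severe acute pancreatitis (SAP) against control livers by RNA-seq, with 6 libraries in each group. SAP 10 to SAP 15 were labelled as treated with caerulein, an analogue of cholecystokinin that overstimulates the exocrine pancreas. Control 3 to control 8 carried the treatment label control, with no vehicle named. All 12 were labelled liver of wild type Balb/c mice at 6 weeks of age. Dose, number of injections and time of collection are not given in the labels. The design text speaks of a pair of mouse models and the labels of a single strain, so whether all SAP libraries stem from the same model is unknown here. The labels do not say that each library is a separate animal, and p-values here measure the spread between these libraries, which may be technical.

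Mitochondrial DNA is transcribed from both strands as long precursors by the polymerase POLRMT with the DNA-packaging factor TFAM. tRNAs lie between most of the other genes, and their excision releases the rRNAs and mRNAs. The strand that gives most products carries the rRNAs and 12 of the protein genes, while Nd6 comes from the other strand. The protein genes encode core subunits of respiratory complexes I (Nd genes), III (Cytb), IV (Co genes) and V, the ATP synthase (Atp6 and Atp8). The remaining subunits are nuclear, and in hepatocytes, which are rich in mitochondria, both sets are assembled together. Nd4l with Nd4, and Atp8 with Atp6, are each carried on a shared mRNA.

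For 6 protein genes, rows of other names with matching sequence also held TPM. A search of the GENCODE M21 transcripts (build GRCm38) found 30 genes outside the mitochondrial genome with at least 50 bases at 80% identity or more to a mitochondrial protein gene or rRNA. Of these, 6 averaged at least 1 TPM, 22 averaged less, the highest of them at 0.695 TPM, and 2 were not analysed here. The 6 are unprocessed pseudogenes that lie side by side on the minus strand at chr1:24612407-24616197, a span of 3791 bases. Gm28661 matched 681 bases of the 684 of mt-Co2 with 0 mismatches, Gm28437 matched 783 of the 784 bases of mt-Co3, Gm10925 matched 678 of the 681 bases of mt-Atp6 and Gm10222 matched 294 of the 297 bases of mt-Nd4l, also with 0 mismatches. Gm28438 matched 345 of the 348 bases of mt-Nd3 with 1 mismatch, and Gm29216 matched 483 bases of mt-Co1, 31.3% of that gene, with 1 mismatch.

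The pairs below show how little separates a gene from its copy. They are transcript sequences as annotated in GENCODE M21 on GRCm38, written 5′ to 3′, and the capital marks the only differing base of the whole match. Positions in the substitution are counted from 1 at the 5′ end of the mitochondrial gene, with the mitochondrial base given before the base of the copy. For mt-Co1 the window lies at chrM:6390-6423 (plus strand), inside the gene at chrM:5328-6872, and for Gm29216 at chr1:24616155-24616188 (minus strand), and the difference is A1066T.
mt-Co1: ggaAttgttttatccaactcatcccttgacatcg
Gm29216: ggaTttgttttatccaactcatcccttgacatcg
For mt-Nd3 the window lies at chrM:9459-9491 (plus strand) and for Gm28438 at chr1:24613087-24613119 (minus strand), and the difference is T3C.
mt-Nd3: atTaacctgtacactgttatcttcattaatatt
Gm28438: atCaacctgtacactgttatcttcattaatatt
For mt-Nd4l, the opening 60 bases at chrM:9877-9936 (plus strand) and those of Gm10222 at chr1:24612641-24612700 (minus strand) hold no difference.
mt-Nd4l: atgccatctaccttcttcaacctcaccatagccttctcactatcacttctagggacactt
Gm10222: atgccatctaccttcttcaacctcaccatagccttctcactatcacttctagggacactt

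For 4 of these genes the row of the copy held most of the TPM of the pair. The row of Gm28661 took between 96.9% and 99.3% of the TPM that it shared with mt-Co2, and Gm28437 took between 89.3% and 97.3% of that shared with mt-Co3. Gm10925 took between 91.1% and 97.5% beside mt-Atp6, and Gm10222 between 79.8% and 87.5% beside mt-Nd4l. The division was more even for mt-Nd3, whose copy took between 40.3% and 61.4%, and the partial copy of mt-Co1 took between 22.5% and 35.4%. These percentages are of TPM not weighted by length, and Gm29216 has 492 bases beside the 1545 of mt-Co1. Weighted by length, it raised the mean of mt-Co1 from 16004 to 18172 TPM in SAP livers. In control livers it raised that mean from 21678 to 24199 TPM. Other annotated copies were nearly empty: Gm28439, which is identical to mt-Nd4 over 876 bases and adjoins the others on chromosome 1, was listed at 0 TPM throughout, and Gm13340, on chromosome 2 and 97.6% identical to mt-Co1 over 1545 bases, averaged 0.228 TPM. The labels do not say how the authors assigned reads shared between such genes. Whether the TPM in the rows of the copies came from mitochondrial RNA or from the copies was not tested. Values are therefore given for each gene as deposited and, for these 6 genes, also as the sum of the gene and its copy weighted by annotated length, an addition made after the data were seen.

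**Figure D1:**
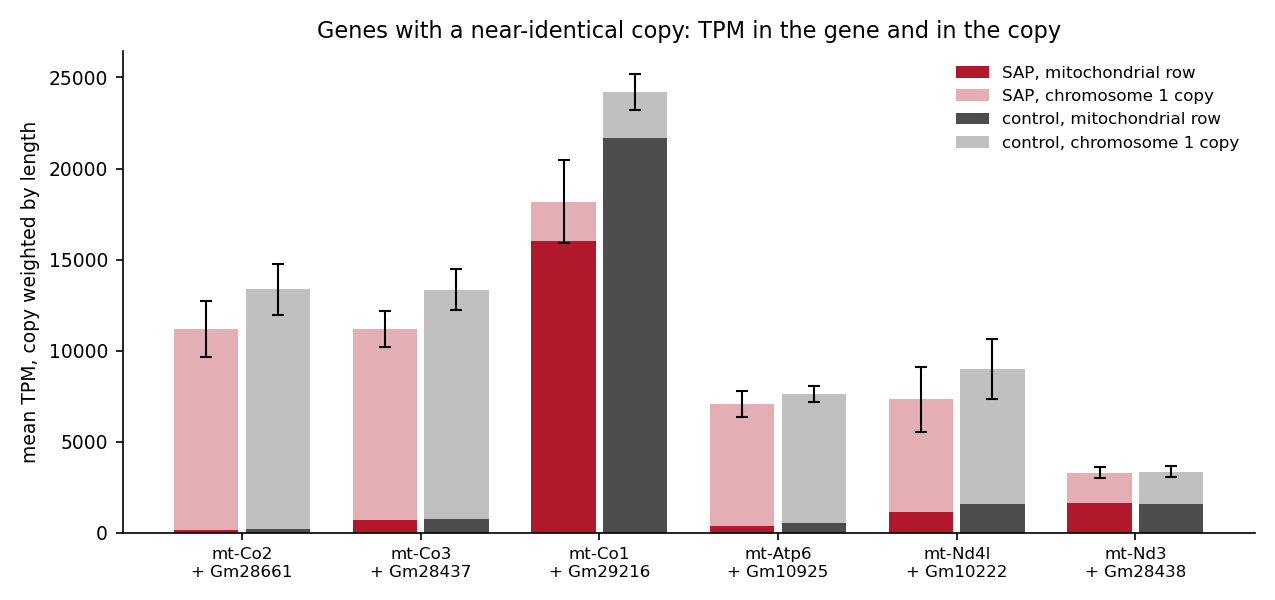
Mean TPM of the 6 mitochondrial genes that have a near-identical copy on chromosome 1, with the gene's own row (solid) under the copy's row weighted by length (pale), in SAP (left bar of each pair) and control livers (right bar, 6 libraries each). Error bars are the SD of the sum. For mt-Co2, mt-Co3 and mt-Atp6 nearly the whole bar belongs to the copy in both groups.

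With copies added, the 13 protein genes fell into tiers of listed TPM, compared here on its per-length scale. Genes carried on a shared mRNA stood apart on this scale. In control livers the ratio of mt-Atp8 to mt-Atp6 averaged 3.35 and that of mt-Nd4l to mt-Nd4 averaged 2.35. The tiers therefore describe listed values and do not rank the genes by number of transcripts. In control livers mt-Atp8 made up 22.1% ± 0.901 of the summed TPM of the 13 genes and mt-Co1 21.1% ± 1.05 (SD, n = 6), with overlapping ranges. mt-Co3 and mt-Co2 followed, between 10.5% and 14.3% and between 10.6% and 12.2%, and did not reach the range of mt-Co1, which began at 19.7%. mt-Nd4l lay between 5.67% and 8.89%, overlapping mt-Atp6 at 6.36% to 7.13%. mt-Cytb lay between 4.36% and 6.04%, below mt-Atp6, and its range touched that of mt-Nd1 at 3.46% to 4.43%. mt-Nd4 and mt-Nd3 overlapped at 2.52% to 3.66% and 2.67% to 3.37%. The lowest were mt-Nd2, mt-Nd5 and mt-Nd6, of which neighbours overlapped and none exceeded 1.77%. In SAP livers mt-Atp8 (21.7% to 25.7%) and mt-Co1 (17.8% to 19.5%) did not overlap, and mt-Nd5 averaged 1.34% and mt-Nd2 1.27%; the order of the means was otherwise the same as in control livers. As deposited, without copies, the order differed: mt-Co2, at 218 ± 125 TPM, was the lowest protein gene in control livers. The rRNAs of the small and large mitochondrial ribosomal subunits were listed at 312 ± 33.8 TPM for mt-Rnr1 and 175 ± 26.8 TPM for mt-Rnr2 in control livers (SD, n = 6).

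**Figure D2:**
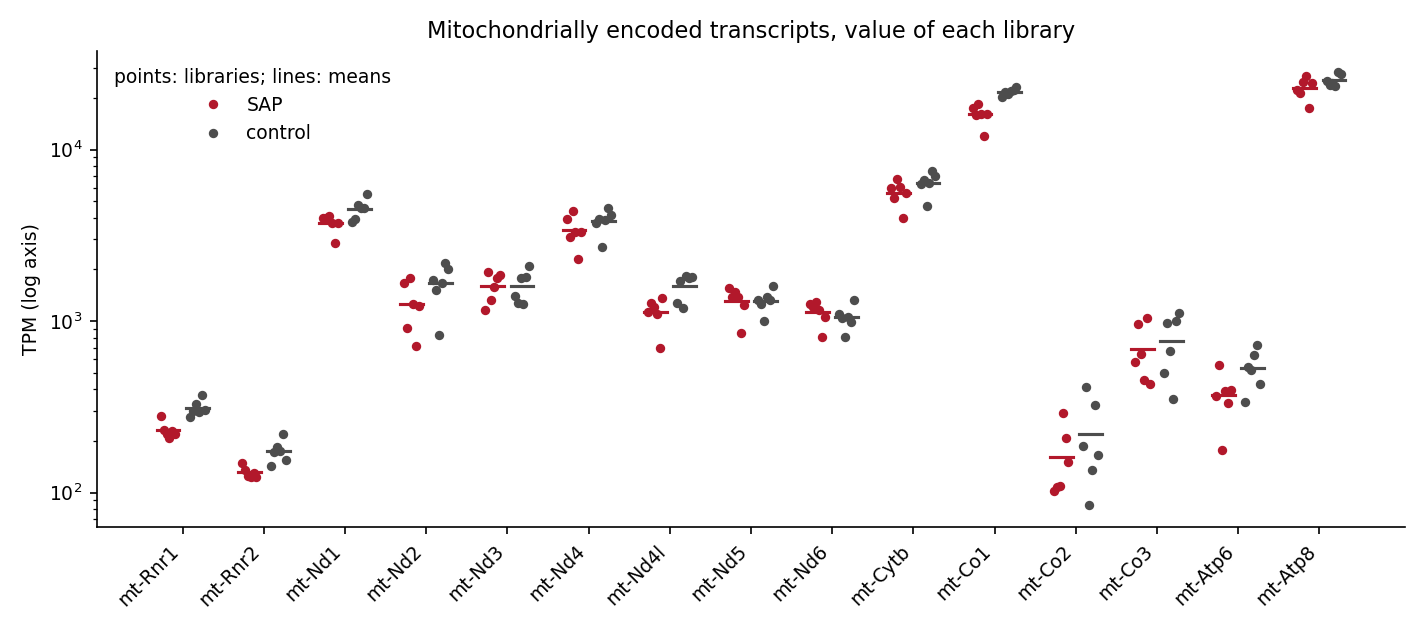
TPM of the 2 rRNAs and 13 protein genes as deposited, on a log axis, with 1 point per library and a line at the mean, SAP left of control for each gene. mt-Co1 is the gene whose 6 SAP points all lie below its 6 control points.

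In SAP livers 2 of the 13 protein genes, mt-Co1 and mt-Nd4l, were lower as deposited and 0 were higher (4 and 0 at an unadjusted p under 0.05), in a limma fit over 11344 genes with Benjamini-Hochberg adjustment at 0.05. In the same fit 25% of all tested genes were lower and 19.5% higher in SAP livers, so the share of lower members (2 of 13) was not above the background. The count of lower genes was 4 without control 3, and 0 when no filter on low values was used (4 at an unadjusted p under 0.05). The log2 change was below 0 for 11 of the 13, with a median of −0.20, against −0.03 for all genes tested. Both rRNAs were lower. In 1 of the 15 tested members, mt-Co1, the 6 SAP libraries and the 6 control libraries did not overlap, which 15.1% of all tested genes did in the lower and 10.5% in the higher direction.

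Of the complex I genes, mt-Nd4l, a small membrane subunit, had a lowest, median and highest value of 692, 1175 and 1361 TPM in SAP livers, against 1198, 1747 and 1841 TPM in control livers. The ranges overlapped, and 3 SAP libraries lay below all controls. The log2 change was −0.51 ± 0.16 (SE; adjusted p = 0.0211, limma). With Gm10222 added, the lowest, median and highest values were 4448, 7390 and 9305 TPM in SAP livers, against 6060, 9132 and 11005 TPM in control livers. The change then was −0.31 ± 0.18 and did not pass (adjusted p = 0.175, limma).

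mt-Nd1, another membrane subunit of complex I, stood at 2870, 3852 and 4117 TPM (lowest, median and highest) in SAP livers, against 3801, 4561 and 5505 TPM in control livers. Its log2 change of −0.27 ± 0.11 did not pass (adjusted p = 0.0535, limma). Leaving out SAP 12, control 3 or control 4 brought it under 0.05, with the lowest adjusted p at 0.0327 without control 3. On the deposited scale the other complex I genes did not pass, except that mt-Nd2 did without control 5 (−0.59, adjusted p = 0.0400, limma). After quantile normalization mt-Nd1 (−0.52, adjusted p = 4.03e-04), mt-Nd4 (−0.37, adjusted p = 0.0307) and mt-Nd4l (−0.41, adjusted p = 0.0365, limma) were lower. Calls under other scalings are given below. mt-Nd2 averaged 1257 ± 413 TPM in SAP livers and 1658 ± 471 TPM in control livers, and mt-Nd4 averaged 3379 ± 723 TPM in SAP livers and 3825 ± 620 TPM in control livers (SD, n = 6 each). mt-Nd3 averaged 1608 ± 309 TPM in SAP livers and 1601 ± 340 TPM in control livers. With Gm28438 added it averaged 3301 ± 299.7 TPM in SAP livers and 3352 ± 308 TPM in control livers, a log2 change of −0.02 ± 0.08 (adjusted p = 0.849, limma). mt-Nd5 averaged 1317 ± 250 TPM in SAP livers and 1317 ± 191 TPM in control livers. mt-Nd6, the single protein gene on the opposite strand, averaged 1129 ± 177 TPM in SAP livers and 1052 ± 168 TPM in control livers, a log2 change of 0.10 ± 0.13 (adjusted p = 0.553, limma).

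mt-Cytb, the mitochondrially encoded subunit of complex III, averaged 5587 ± 935 TPM in SAP livers and 6408 ± 965 TPM in control livers (SD, n = 6 each). Its log2 change of −0.20 ± 0.13 did not pass (adjusted p = 0.245, limma). After quantile normalization it was lower (−0.64, adjusted p = 4.30e-04, limma).

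Of the complex IV genes, mt-Co1 encodes the catalytic subunit that holds the oxygen-reducing site. Its lowest, median and highest values were 12015, 16117 and 18347 TPM in SAP livers, against 20161, 21682 and 23281 TPM in control livers. Every SAP library lay below every control library. The log2 change was −0.45 ± 0.10 (adjusted p = 0.00228, limma), and with Gm29216 added it was −0.42 ± 0.09 (adjusted p = 0.00210), again without overlap, at 14116 to 20653 TPM in SAP livers and 22484 to 25492 TPM in control livers.

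mt-Co3, a structural core subunit, averaged 685 ± 259 TPM in SAP livers and 767 ± 308 TPM in control livers as deposited, a log2 change of −0.13 ± 0.30 that did not pass. Gm28437 held most of the TPM of the pair. With it added, mt-Co3 stood at 9673, 11362 and 12329 TPM (lowest, median and highest) in SAP livers. In control livers the sum stood at 12276, 13008 and 15297 TPM. In this sum 5 of the 6 SAP libraries lay below all controls, and the log2 change of −0.26 ± 0.08 passed (adjusted p = 0.0203, limma). mt-Co2, the subunit that takes electrons from cytochrome c, averaged 161 ± 74.9 TPM in SAP livers and 218 ± 125 TPM in control livers as deposited, a log2 change of −0.35 ± 0.37 (adjusted p = 0.467, limma). It averaged 11187 ± 1527 TPM in SAP livers and 13368 ± 1405 TPM in control livers with Gm28661 added. The log2 change of this sum, −0.26 ± 0.11, did not pass (adjusted p = 0.0601, limma). The count of lower protein genes thus was 2 of 13 with copies too, against 25% of all genes, and mt-Co1 was the gene called both ways.

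On the deposited scale, with all 12 libraries and group as the only term, neither ATP synthase gene passed. After quantile normalization mt-Atp8 was lower (−0.35, adjusted p = 0.0213, limma). Calls under other scalings are given below. mt-Atp8 averaged 22825 ± 3265 TPM in SAP livers and 25467 ± 2000 TPM in control livers (SD, n = 6 each), a log2 change of −0.17 ± 0.11. mt-Atp6, which forms part of the proton channel, averaged 369 ± 121 TPM in SAP livers and 532 ± 140 TPM in control livers as deposited, a log2 change of −0.56 ± 0.24 (adjusted p = 0.0768, limma). It was lower without SAP 11 (−0.69, adjusted p = 0.0311) or without control 3 (−0.68, adjusted p = 0.0373), and its change ran from −0.69 to −0.36 when single libraries were left out. With Gm10925 added, mt-Atp6 averaged 7091 ± 718 TPM in SAP livers and 7595 ± 438 TPM in control livers, and the log2 change was −0.10 ± 0.08 (adjusted p = 0.317, limma).

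The rRNA of the small mitochondrial ribosomal subunit, mt-Rnr1, stood at 207, 225 and 279 TPM (lowest, median and highest) in SAP livers, against 276, 302 and 372 TPM in control livers. Its log2 change was −0.43 ± 0.09 (adjusted p = 0.00110, limma). The rRNA of the large subunit, mt-Rnr2, stood at 123, 128 and 149 TPM in SAP livers, against 142, 173 and 221 TPM in control livers, a log2 change of −0.40 ± 0.09 (adjusted p = 0.00365, limma). In each rRNA 5 SAP libraries lay below all controls, and SAP 10 was the one that did not. After quantile normalization neither rRNA passed, with log2 changes of −0.05 for both (adjusted p = 0.704 for mt-Rnr1 and 0.705 for mt-Rnr2, limma).

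The direction of these changes depended on the total that the values were scaled to. TPM adds to a fixed total, so a rise of some transcripts lowers the share left to the others. Whether this lowered the mitochondrial values was not tested. Under trimmed-mean scaling, 2 of the 13 protein genes as deposited were lower, against 24.1% of all genes. There 0 were higher (also 0 at an unadjusted p under 0.05, limma), against 24% of all genes, and the median log2 change of the 13 was −0.15. Acute-phase genes, which the liver switches on in inflammation (31 genes such as serum amyloid A, haptoglobin and fibrinogen), took between 22.9% and 37.2% of all TPM in SAP livers, against 3.64% to 4.26% in control livers. Mitochondrial rows with their copies took between 8.00% and 11.5% of all TPM in SAP livers, against 11.4% to 13.2% in control livers, and 5 SAP libraries lay below all controls. Copies entered these shares without weighting by length. With the acute-phase list left out of the total, the same rows took between 12.7% and 15.5% in SAP livers, against 11.9% to 13.7% in control livers, and 5 SAP libraries lay above all controls. SAP 14 had the lowest mitochondrial share by either total among SAP libraries and the highest acute-phase share.

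**Figure D3:**
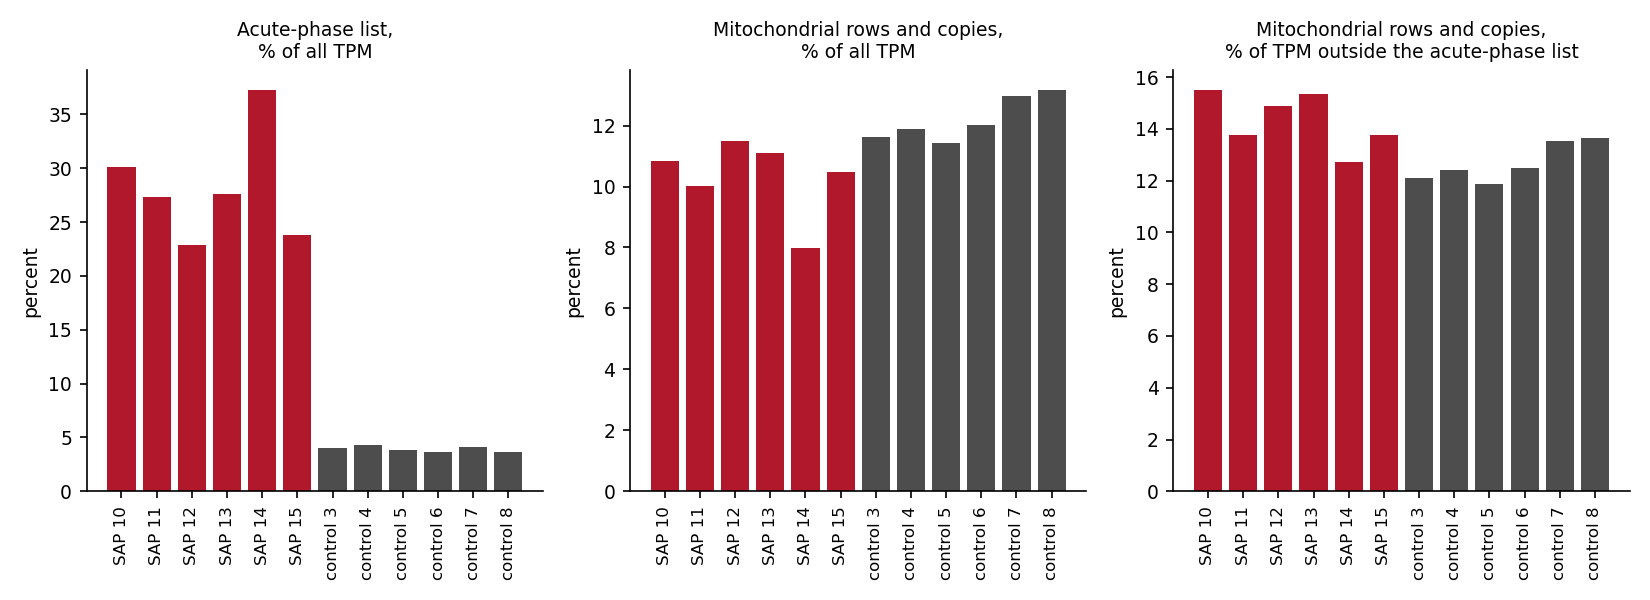
Share of TPM in each library, in percent, for the acute-phase list (left), the mitochondrial rows and copies of all TPM (middle) and of the total without that list (right), with the 6 SAP libraries left of the 6 control libraries. The middle bars are mostly lower in SAP livers (8.00% to 11.5%, against 11.4% to 13.2%) and the right bars mostly higher (12.7% to 15.5%, against 11.9% to 13.7%). Copies are not weighted by length.

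When the values were scaled to the total outside the acute-phase list, the median log2 change of all genes was 0.32, against −0.03 as deposited, and 56% of all genes were higher and 10.5% lower in SAP livers. On this scale 0 of the 13 protein genes were lower (also 0 at an unadjusted p under 0.05, limma) and 4 were higher without copies, namely mt-Nd3, mt-Nd5, mt-Nd6 and mt-Atp8, and their median log2 change was 0.22, below that of all genes. With copies added 5 were higher, against 56.1% of all genes, and these were mt-Nd6 at 0.52 ± 0.11, mt-Nd5 at 0.41 ± 0.12, mt-Nd3 at 0.40 ± 0.08, mt-Atp6 at 0.32 ± 0.07 and mt-Atp8 at 0.26 ± 0.09 (log2 change ± SE). mt-Co1 with its copy was at 0.00 ± 0.08, and mt-Rnr1 and mt-Rnr2 were at −0.01 ± 0.10 and 0.02 ± 0.11. Against the median of all genes (0.32), mt-Co1, both rRNAs and mt-Nd2, at 0.02 ± 0.24, were the lowest of the 15 members.

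Changes among the protein genes themselves were read with their sum set equal in every library, where the median of all genes was 0.19 as deposited and 0.18 with copies. As deposited, mt-Nd6 (0.36 ± 0.10, adjusted p = 0.00615, limma) and mt-Nd5 (0.25 ± 0.10, adjusted p = 0.0441, limma) were higher, against 37% of all genes, and 0 of the 13 were lower (1 at an unadjusted p under 0.05), against 13.8%. With copies, mt-Nd6 alone passed (0.35 ± 0.09, adjusted p = 0.00763, limma), where 36.4% of all genes were higher and 14.4% lower, and mt-Co1 did not (−0.17 ± 0.08, adjusted p = 0.0685). As a share of the summed TPM of the 13 genes with copies, mt-Nd6 was 1.16% ± 0.0877 in SAP livers and 0.912% ± 0.116 in control livers, and mt-Co1 was 18.7% ± 0.639 in SAP livers and 21.1% ± 1.05 in control livers (SD, n = 6 each). In that share mt-Co1 did not overlap between the groups, while 5 SAP libraries lay above all controls for mt-Nd6.

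**Figure D4:**
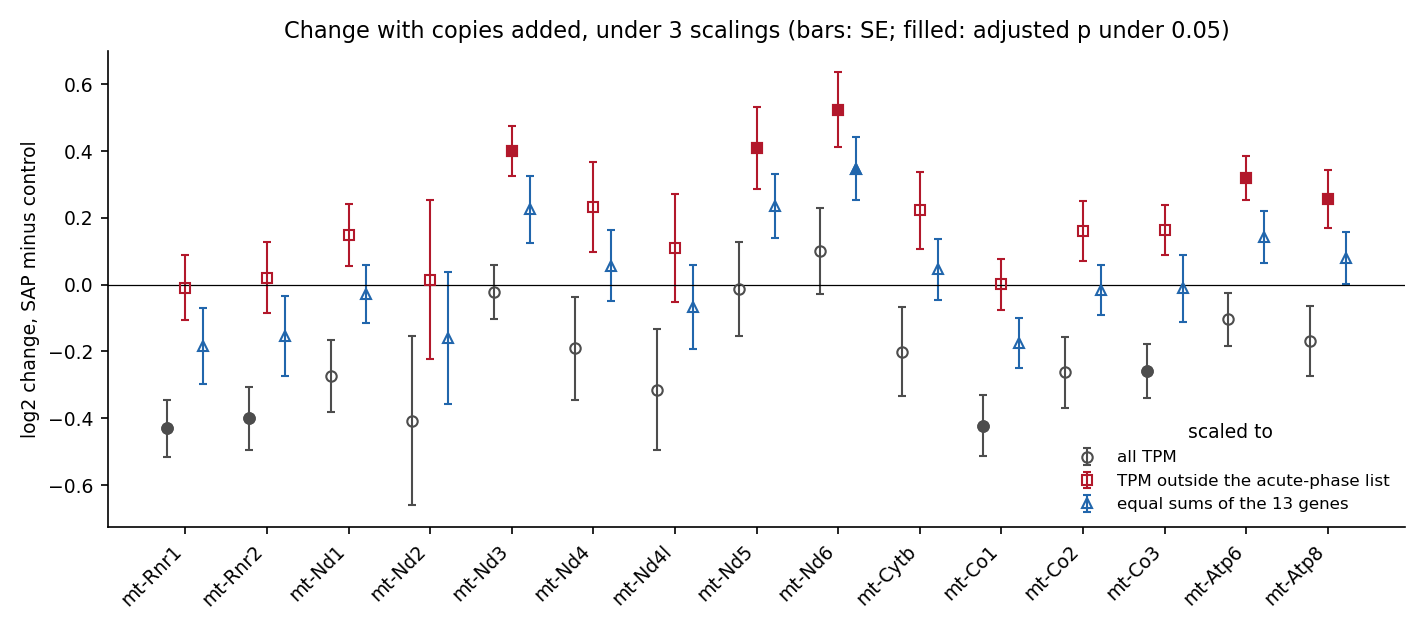
Log2 change in TPM, SAP minus control, of the 2 rRNAs and 13 protein genes with copies added, under 3 scalings (circles, all TPM; squares, TPM outside the acute-phase list; triangles, equal sums of the 13 genes). Bars are the SE and filled symbols have an adjusted p under 0.05. Circles lie mostly below 0 and squares mostly above 0, and mt-Nd6 is the highest protein gene under each scaling.

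Ratios within a library do not depend on its total, and 4 were tested by an exact two-sided permutation test over the 12 libraries, whose smallest possible p is 0.00216, with adjustment over the 4. The ratio of mt-Nd6 to mt-Nd5, neighbours on opposite strands, had a lowest, median and highest value of 0.809, 0.856 and 0.946 in SAP livers, against 0.748, 0.812 and 0.833 in control livers, and 5 SAP libraries lay above all controls. The log2 difference of 0.11 had p = 0.0152 in the exact test and did not pass after adjustment (adjusted p = 0.0563). It did pass without SAP 10, SAP 15 or control 3, with the lowest adjusted p at 0.0173 in the exact test without SAP 10. The ratio of mt-Nd4l to mt-Nd4 averaged 0.338 ± 0.0618 in SAP livers and 0.420 ± 0.0476 in control livers (SD, n = 6 each), a log2 difference of −0.32 with adjusted p = 0.0563 in the exact test, and it passed without SAP 15 (adjusted p = 0.0476) or control 3 (adjusted p = 0.0433).

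With Gm10222 added, the ratio of mt-Nd4l to mt-Nd4 averaged 2.16 ± 0.141 in SAP livers and 2.35 ± 0.0583 in control livers (SD, n = 6 each). The log2 difference of −0.12 then passed in the exact test (adjusted p = 0.0303), with 4 SAP libraries below all controls; in that family of 4 the ratio of mt-Nd6 to mt-Nd5, itself unaltered, also had an adjusted p of 0.0303 in the exact test. The ratio of mt-Rnr2 to mt-Rnr1 averaged 0.569 ± 0.0221 in SAP livers and 0.558 ± 0.0363 in control livers, and its log2 difference of 0.03 did not pass (exact permutation p = 0.509). The ratio of mt-Atp8 to mt-Atp6 averaged 70.3 ± 35.6 in SAP livers and 51.0 ± 15.1 in control livers as deposited, and 3.21 ± 0.208 in SAP livers and 3.35 ± 0.167 in control livers with Gm10925 added. Its log2 difference was 0.39 as deposited and −0.06 with the copy, and neither passed (exact permutation, adjusted p = 0.306 and 0.286).

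Libraries differed in ways that the groups do not explain, and some members moved with them. Xist, a nuclear-retained RNA, was at 4.59 to 17.1 TPM in SAP 11, SAP 13, SAP 14, SAP 15 and control 5, and at 49.1 to 60.7 TPM in SAP 10, SAP 12 and the other 5 controls. mt-Nd2 was at 713 to 1262 TPM in the 4 low SAP libraries and 1658 to 1780 TPM in the other 2, and at 835 TPM in control 5, against 1518 to 2193 TPM in the other controls. mt-Nd4 followed the same split, at 2288 to 3299 TPM in the low and 3911 to 4399 TPM in the other SAP libraries, and at 2691 TPM in control 5, against 3745 to 4536 TPM in the other controls. Gm10222 did so too, at 3794 to 6553 TPM and 7996 to 8176 TPM in the low and the other SAP libraries, and at 4912 TPM in control 5, against 7287 to 9312 TPM in the other controls. mt-Nd6 was at 811 to 1207 TPM in the low and 1262 to 1287 TPM in the other SAP libraries, and at 807 TPM in control 5, against 987 to 1325 TPM in the other controls. With mt-Nd5 and Gm28661, 6 of the 21 rows (15 members and 6 copies) were split in this way in both groups. In control livers the split rests on control 5 alone. The share of all genes split in this way was not counted, so whether the members stand out is unknown. mt-Co1 was split in SAP livers, at 12015 to 16152 TPM in the low and 17515 to 18347 TPM in the other libraries, but not in control livers, where control 5 was at 20933 TPM and the lowest of the others at 20161 TPM.

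Within the 7 libraries of high Xist (2 SAP, 5 control), mt-Nd4l was the lower protein gene called (1 of 13, against 16.1% of all genes). There mt-Co1 had a log2 change of −0.28 ± 0.11 (adjusted p = 0.0762, limma), mt-Rnr1 of −0.31 ± 0.13 (adjusted p = 0.109) and mt-Rnr2 of −0.32 ± 0.16 (adjusted p = 0.156). With the split as a term in the fit over all 12 libraries, mt-Nd4l did not pass (−0.38 ± 0.18, adjusted p = 0.117, limma), while mt-Co1 (−0.36 ± 0.10, adjusted p = 0.0155), mt-Rnr1 (adjusted p = 0.00745) and mt-Rnr2 (adjusted p = 0.0153) did. mt-Atp6 as deposited was lower in that fit (−0.77 ± 0.27, adjusted p = 0.0358, limma). Within the high-Xist libraries mt-Co1 was at 17515 and 18347 TPM in SAP 10 and SAP 12. That these lie below the controls follows from the lack of overlap over all 12 libraries and is no separate test. The low libraries hold 1 control, so the change could not be tested within them.

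Cell type markers also differed between the groups. The 9 hepatocyte markers in the file, 10 being listed, summed to 40106 to 55661 TPM in SAP livers, against 90748 to 102476 TPM in control livers, and 7 of the 9 were lower and 1 higher, against 25% and 19.5% of all genes. All 9 passed the filter, which either group alone can meet. By their sums, the markers of the labelled tissue were present in both groups. The 12 neutrophil markers summed to 37.0 to 113 TPM in SAP livers, against 5.32 to 21.3 TPM in control livers. Of these, 4 were tested and 3 were higher, against 19.5% of all genes, and the untested ones reached at most 1.65 TPM. Such low genes can pass the filter through the SAP libraries alone, so this count does not test the markers. The 6 erythroid markers summed to 341 to 716 TPM in SAP livers, against 607 to 5292 TPM in control livers. In bulk liver, fewer cells of a type and less RNA per cell cannot be told apart. The part of these markers in the mitochondrial values was not tested.

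Most nuclear partners of the mitochondrial subunits were lower in SAP livers. Of 78 listed gene names for nuclear subunits of complexes I, III, IV and V, 76 were in the file and tested. The ATP synthase inhibitor Atpif1 is counted among the subunits here. Of the 76, 71 were lower and 1 higher, against 25% and 19.5% of all genes. Their median log2 change was −0.49, against −0.20 for the 13 mitochondrial genes with copies and −0.03 for all genes. After quantile normalization this order turned round, with a median of −0.18 for the nuclear subunits and −0.31 for the 13 mitochondrial genes as deposited. The groups did not overlap for 67 of the 76, against 15.1% of all tested genes in the lower and 10.5% in the higher direction. The changes ran from −1.09 to 0.38, and 50 of the 76 lay below the lowest mitochondrial change with copies, which was that of mt-Co1 at −0.42. Their summed TPM was 18545 to 21042 in SAP livers, against 26058 to 28739 in control livers, without overlap. Mitochondrial protein genes and copies amounted to 4.22 to 5.79 TPM per TPM of nuclear subunits in SAP livers, against 3.93 to 4.93 in control livers, and 5 SAP libraries lay above all controls while SAP 14 did not. Copies entered this ratio without weighting by length.

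By complex, 34 of 37 nuclear subunits of complex I were lower, 9 of 9 of complex III, 12 of 12 of complex IV and 16 of 18 of complex V, against 25% of all genes. Cyc1, the cytochrome c1 that sits beside cytochrome b in complex III, averaged 114 ± 11.3 TPM in SAP livers and 244 ± 13.2 TPM in control livers, a log2 change of −1.09 ± 0.07. Uqcrfs1, its iron-sulfur protein, and Uqcrc1, a core protein, changed by −0.71 ± 0.06 and −0.69 ± 0.06. Cox5a, a nuclear subunit of complex IV, averaged 223 ± 16.5 TPM in SAP livers and 414 ± 16.7 TPM in control livers, a log2 change of −0.89 ± 0.06, and Cox8a and Cox7a2 of the same complex changed by −0.60 ± 0.06 and −0.44 ± 0.05.

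In complex I, Ndufa12, Ndufab1 (the acyl carrier protein) and Ndufb8 changed by −0.75 ± 0.07, −0.70 ± 0.06 and −0.70 ± 0.05 (log2, ± SE). In complex V, Atp5c1 (the central stalk), Atp5e and Atp5g3 changed by −0.78 ± 0.07, −0.66 ± 0.06 and −0.64 ± 0.06. Each of these nuclear subunits had an adjusted p of 2.25e-05 or less in the limma fit. Atp5g1, which encodes the same c subunit of ATP synthase as Atp5g3 with another import signal and is named here because it was the only subunit that rose, averaged 622 ± 62.3 TPM in SAP livers and 476 ± 31.6 TPM in control livers, a log2 change of 0.38 ± 0.07 (adjusted p = 9.59e-04). On the scale of the total outside the acute-phase list, 25 of the 76 were lower and 7 higher, with a median of −0.07, against 10.5% lower and 56% higher among all genes. With equal sums of the mitochondrial genes 34 were lower and 1 higher, with a median of −0.23, against 13.8% lower and 37% higher among all genes.

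**Figure D5:**
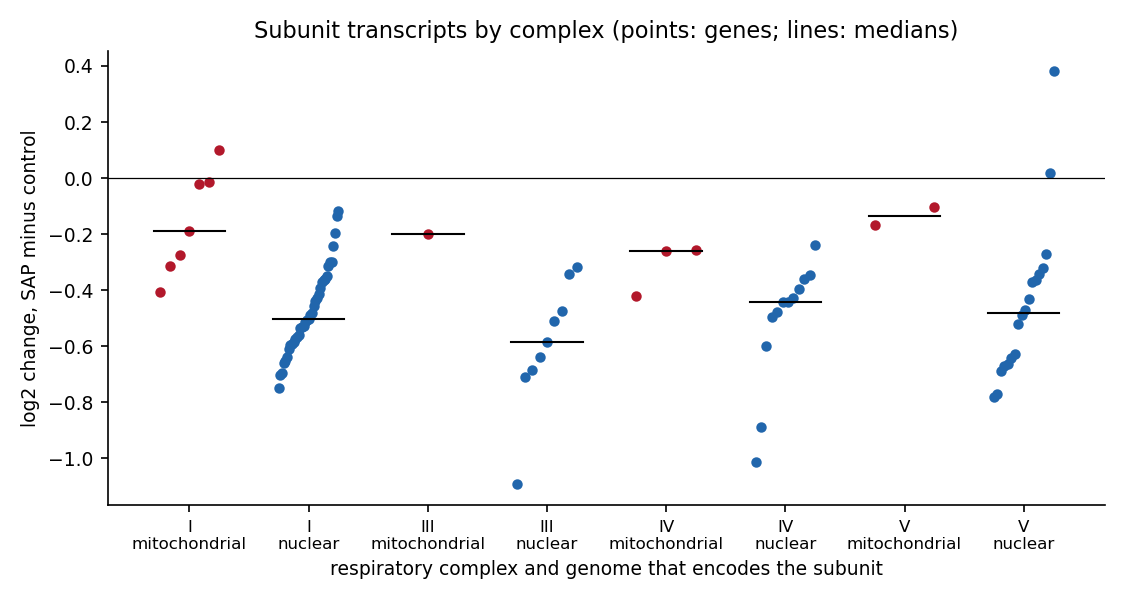
Log2 change in TPM, SAP minus control, of each subunit gene of complexes I, III, IV and V, with mitochondrially encoded genes (copies added) left of the nuclear ones and a line at each median. Most nuclear points lie below the mitochondrial points of the same complex, with Cyc1 lowest at −1.09 and Atp5g1 highest at 0.38.

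Of the nuclear genes that express mitochondrial DNA, 23 of 66 tested were lower and 2 higher in SAP livers, against 25% and 19.5% of all genes, with a median log2 change of −0.20. The count of higher genes was 4 without SAP 12, 3 without control 8, 2 without SAP 13 and 1 without any of the other libraries. Of the transcription and maintenance list 4 of 17 were lower, near the 25% of all genes, and 0 higher (8 and 0 at an unadjusted p under 0.05, limma). Polrmt, the mitochondrial RNA polymerase, averaged 15.6 ± 2.70 TPM in SAP livers and 14.0 ± 2.03 TPM in control livers, a log2 change of 0.14 ± 0.12 (adjusted p = 0.362, limma), and Tfam averaged 24.3 ± 4.47 TPM in SAP livers and 27.7 ± 1.74 TPM in control livers, a log2 change of −0.20 ± 0.11 (adjusted p = 0.151, limma). Without SAP 11 Tfam passed (−0.27, adjusted p = 0.0485, limma), and its change ran from −0.27 to −0.12 without single libraries. Polg2, the accessory subunit of the mitochondrial DNA polymerase, Top1mt, a topoisomerase, and Mterf2, a termination factor family member, were lower by log2 changes of −1.13 ± 0.15, −0.53 ± 0.11 and −0.59 ± 0.16.

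Of the RNA processing and stability list 10 of 22 were lower and 1 higher, against 25% and 19.5% of all genes. Lrpprc, which with Slirp protects mitochondrial mRNAs, averaged 33.4 ± 5.53 TPM in SAP livers and 50.4 ± 3.77 TPM in control livers, a log2 change of −0.59 ± 0.10 (adjusted p = 3.24e-04, limma), while Slirp changed by −0.20 ± 0.12 (adjusted p = 0.195). Hsd17b10, a subunit of the mitochondrial RNase P, averaged 130 ± 24.1 TPM in SAP livers and 351 ± 37.4 TPM in control livers, a log2 change of −1.44 ± 0.12. Ptcd3, a protein of the small mitochondrial ribosomal subunit, and Taco1, a translational activator of mt-Co1, changed by −0.89 ± 0.10 and −0.67 ± 0.09. Rexo2, an exonuclease of short RNAs, was the member that rose, by 0.20 ± 0.07 (adjusted p = 0.0430), and is named for that reason.

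Of the RNA modification list 6 of 19 were lower, against 25% of all genes, and 0 higher (8 and 0 at an unadjusted p under 0.05, limma), among them Trit1, Pus1 and Mto1, which modify tRNAs, with log2 changes of −0.78 ± 0.13, −0.61 ± 0.10 and −0.49 ± 0.09. Of 8 regulators of mitochondrial biogenesis 3 were lower, against 25% of all genes: the coactivators Ppargc1a (−1.13 ± 0.17) and Ppargc1b (−0.92 ± 0.13) and the nuclear receptor Esrra (−0.70 ± 0.13). Ppargc1b lay between 0.09 and 0.93 TPM in SAP livers and between 1.14 and 1.54 TPM in control livers. It met the filter through the control libraries alone, and a filter at a mean of at least 5 TPM would leave it untested. With no filter its call was the same. Ppargc1a averaged 1.20 ± 0.380 TPM in SAP livers and 3.87 ± 1.16 TPM in control livers, and Esrra averaged 10.4 ± 2.37 TPM in SAP livers and 17.3 ± 2.23 TPM in control livers. The related coactivator Pprc1 was higher, at 4.69 ± 1.43 TPM in SAP livers and 2.29 ± 0.534 TPM in control livers (0.76 ± 0.17), and is named because it was the member that rose. On the scale of the total outside the acute-phase list, 24 of the 66 genes were higher and 12 lower, against 56% higher and 10.5% lower among all genes. Tfam and Slirp then had log2 changes of 0.21 and 0.20.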

How the data were processed

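The authors deposited 1 table of 12 sample columns and a gene symbol, whose values, read here as TPM, they had scaled to a common total. Neither header nor label names a unit: each column added to between 993412 and 995793 and held no common step, and the scaling per transcript length is inferred. TPM carries no sequencing depth, so no counting interval could be given. The submitters' processing notes list edgeR without version or role, as a tool of the authors. The aligner, build, annotation, strand setting and treatment of shared reads are not stated in those sources. Libraries followed the standard Illumina procedure from Trizol RNA, per the labels' protocols, and groups came from the labels.

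limma 3.58.1 (R 4.3.3, trend) was fitted to log2(TPM + 1) with group as its term over 11344 genes (a value of 1 TPM or more in 6 libraries), two-sided, with Benjamini-Hochberg adjustment at 0.05, and was tested on simulated data. Fold changes on this scale understate low genes. Rows repeating a symbol (120) were kept. Copies were found with blastn 2.17.0. Exact permutation tests enumerated all 924 regroupings of the 12 libraries, or fewer when libraries were left out. The enumeration was checked against scipy 1.17.1 on random values. Members, lists, ratios and tests were chosen with earlier results of these data known. All mitochondrial genes above the filter were named, and of each nuclear list the 3 members of smallest adjusted p plus Polrmt, Tfam, Lrpprc and Slirp. Alternatives were scaling (including trimmed means and quantiles), filter, pseudocount, model options, the Xist split and leaving out each library. Sums with copies, and the settings combined with them, were added after seeing the data.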

Additional observations from a re-analysis of the deposited data

Results flagged for a closer look

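Of 96 sets of 6 libraries checked for a library far from the others, 4 were flagged, and chance flags about 1 in 20 such sets. mt-Nd1 was at 2870 TPM in SAP 14, where the other 5 SAP libraries lay between 3719 and 4117 TPM. Gm28438, the copy of mt-Nd3, was at 1206 TPM in SAP 14, where the others lay between 1690 and 1866 TPM. SAP 14 also had the highest acute-phase share of TPM, 37.2%. mt-Rnr1 was at 279 TPM in SAP 10, with the others between 207 and 233 TPM. The ratio of mt-Atp8 to mt-Atp6 was 140.0 in SAP 12, whose mt-Atp6 was at 176 TPM, and 38.9 to 68.7 in the other SAP libraries.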

How the results depend on the processing

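No paired analysis was possible because the SAP and control libraries share no replicate number. Of 13 protein genes, 2 were lower in SAP livers; the count was 2 to 4 when single libraries were left out (4 without control 3; 3 without SAP 11, SAP 12, control 4 or control 5), 6 after quantile normalization (22.7% of all genes), 1 in the high-Xist libraries, and 0 with no filter (11% of all genes), scaled outside the acute-phase list or to equal sums of the 13 genes. With copies it was 1 under trimmed-mean scaling (24.1% of all genes) and 0 in the high-Xist libraries, outside the acute-phase list or with equal sums. The count of higher genes was 0 without any 1 library, 4 outside the acute-phase list (5 with copies) and 2 with equal sums (1 with copies). Over all genes, 2211 were higher and 2832 lower; these were 6350 and 1190 outside the acute-phase list, 4200 and 1563 with equal sums, 1830 lower in the high-Xist libraries, and 1955 to 2453 higher and 2536 to 3063 lower without single libraries. Nuclear subunits were 71 to 72 lower and 1 higher without single libraries, 42 lower and 4 higher after quantile normalization, 25 and 7 outside the acute-phase list, 34 lower with equal sums, and 0 higher in the high-Xist libraries. Expression genes were 22 to 25 lower and 1 to 4 higher without single libraries (4 without SAP 12, 3 without control 8, 2 without SAP 13 and 1 without any of the others), 12 lower and 24 higher outside the acute-phase list, 10 higher with equal sums, and 1 higher with no filter, with a mean of at least 5 TPM, in the high-Xist libraries or without both SAP 14 and control 5.

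The difference in the share of mitochondrial rows was −1.16 percentage points (−1.31 to −0.88 without single libraries), −1.86 with copies, and 0.87 and, with copies, 1.65 of the total outside the acute-phase list. Copies in these shares were not weighted by length. The ratio of mt-Nd6 to mt-Nd5 differed by 0.086 to 0.13 (log2), mt-Nd4l to mt-Nd4 by −0.39 to −0.27, mt-Atp8 to mt-Atp6 by 0.17 to 0.54 and mt-Rnr2 to mt-Rnr1 by 0.0065 to 0.049 without single libraries; mt-Nd4l to mt-Nd4 was −0.12 and mt-Atp8 to mt-Atp6 −0.064 with copies, and mt-Rnr2 to mt-Rnr1 was −0.00901 in the high-Xist libraries, where mt-Nd6 to mt-Nd5 was 0.072, mt-Nd4l to mt-Nd4 −0.54 and mt-Atp8 to mt-Atp6 0.89.

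Signs changed as follows (log2 change). Outside the acute-phase list, mt-Nd1 was 0.15, mt-Nd2 0.014, mt-Nd4 0.23, mt-Nd5 0.41, mt-Cytb 0.22, mt-Co2 0.068, mt-Co3 0.29, mt-Atp8 0.25, mt-Rnr2 0.020, Gm28661 0.16, Gm28437 0.16, Gm29216 0.21, Gm10925 0.35, Gm10222 0.15, Gm28438 0.36, Tfam 0.21 and Slirp 0.20; with copies, mt-Co2 was 0.16, mt-Co3 0.16, mt-Co1 0.0010, mt-Atp6 0.32, mt-Nd4l 0.11 and mt-Nd3 0.40. With equal sums, mt-Nd4 was 0.072, mt-Nd5 0.25, mt-Cytb 0.062, mt-Co3 0.13, mt-Atp8 0.095, Gm28661 0.0017, Gm29216 0.050, Gm10925 0.19, Gm28438 0.20, Tfam 0.052 and Slirp 0.049; with copies, mt-Atp6 was 0.14 and mt-Nd3 0.23. In the high-Xist libraries, mt-Nd3 was −0.30, mt-Nd4 0.037, mt-Nd5 0.15, Gm10222 0.023 and Gm28438 0.084; with the split as a term, mt-Nd2 was 0.046, mt-Nd3 −0.19, mt-Nd4 0.073, mt-Nd5 0.18 and Gm10222 0.049. mt-Nd5 was 0.041 and, with copies, mt-Nd3 0.032 under trimmed-mean scaling; mt-Nd5 was 0.077, mt-Co3 0.083 and Gm28438 0.073 after quantile normalization; mt-Nd5 was 0.030 and Gm28438 0.043 without both SAP 14 and control 5. Without single libraries, mt-Nd3 (0.01 with all) ran from −0.056 to 0.099 and was below 0 without SAP 11, SAP 14, SAP 15, control 3, control 4 or control 6; mt-Nd5 (−0.01 with all) ran from −0.089 to 0.11 and was above 0 without SAP 14, control 6 or control 8; Gm28438 ran from −0.092 to 0.034 and was above 0 without SAP 14. Scaling to another total divides all values of a library by the same factor. Sign changes under those scalings are therefore not separate findings for each gene. The cause of the other sign changes was not tested. mt-Co1, mt-Nd4l, mt-Rnr1 and mt-Rnr2 stayed past the threshold without any single library (highest adjusted p 0.00635, 0.0475, 0.00310 and 0.00913, limma). Fits that leave out libraries were run on the genes as deposited. Unknown depth and 6 libraries per group limit the precision.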
